A study of Mus musculus with 15 samples.

Results

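The 29 genes described here include enzymes of cholesterol synthesis and the transcription factor SREBP2 with the proteins that escort it or hold it back. The rest are further genes that SREBP2 or sterols are known to regulate. All were chosen by symbol, and all 29 were found among the 56980 gene identifiers of the count table. All 29 also passed the filter on low counts that left 14627 genes for testing. Livers came from WT male C57Bl/6J mice that entered the diets at 15 weeks of age and stayed on them for 9 months. The control diet (Control_ALF) held 10% fat, the high-fat diet (HFD_ALF) 60% fat and the ketogenic diet (Keto_ALF) 89.9% fat. The labels do not spell out ALF, and they give neither the units of these fat percentages nor the carbohydrate, protein or cholesterol of the diets. Poly(A) RNA of frozen liver was sequenced with a strand-keeping kit. Of the 15 libraries, the submitters excluded control replicate 1 as contaminated, which leaves control replicates 2 to 5, high-fat replicates 1 to 5 and ketogenic replicates 1 to 5. The labels do not say that replicates are separate mice, so the p-values measure the spread between these libraries.

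Hepatocytes build cholesterol from acetyl-CoA through mevalonate, isoprenoid units and squalene, and then remodel lanosterol step by step. SREBP2 is made as an endoplasmic reticulum membrane protein bound to its escort SCAP. When sterols are plentiful, the INSIG proteins hold SCAP in that membrane; when sterols fall, SCAP carries SREBP2 to the Golgi, where it is cleaved and its released part enters the nucleus. The nuclear fragment binds sterol regulatory elements, often beside NF-Y, and switches on nearly every enzyme of the pathway as well as Insig1. Insig2 does much the same work as Insig1, but its liver transcript Insig2a is known to be repressed by insulin and to rise in fasting.

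Promoter windows are shown for 5 of the genes. Hmgcs1, Insig1 and Insig2 are among those that passed the test against control on both fat-rich diets. Aacs, Lbr and Stard4 also did and are not shown. Mvk and Msmo1 are shown because their levels on the ketogenic diet parted by library. The windows are RefSeq sequences of build GRCm38.p6, run 5′ to 3′ on the gene's strand, and span 250 bases before to 50 bases after an annotated start. Capitals mark the core of the sterol regulatory element, TCACNCCAC, and the NF-Y box CCAAT, or its reverse complement, each searched on both strands. The Hmgcs1 window lies at chr13:119690101-119690400 on the plus strand, and that of Insig1 at chr5:28071162-28071461 on the plus strand. The Insig2 window shown lies at chr1:121332540-121332839 on the minus strand, the Mvk window at chr5:114444019-114444318 on the plus strand and the Msmo1 window at chr8:64733529-64733828 on the minus strand.
Hmgcs1: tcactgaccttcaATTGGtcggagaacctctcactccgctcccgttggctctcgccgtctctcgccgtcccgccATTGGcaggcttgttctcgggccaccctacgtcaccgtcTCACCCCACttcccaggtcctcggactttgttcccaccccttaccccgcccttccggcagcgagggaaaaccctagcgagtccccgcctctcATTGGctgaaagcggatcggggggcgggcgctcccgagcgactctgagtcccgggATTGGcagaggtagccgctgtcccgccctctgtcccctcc
Insig1: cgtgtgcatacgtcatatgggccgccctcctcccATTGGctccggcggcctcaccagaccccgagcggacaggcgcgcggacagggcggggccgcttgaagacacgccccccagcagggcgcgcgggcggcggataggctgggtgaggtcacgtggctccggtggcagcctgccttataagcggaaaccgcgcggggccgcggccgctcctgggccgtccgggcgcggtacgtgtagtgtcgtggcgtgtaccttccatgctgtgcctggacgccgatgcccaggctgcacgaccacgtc
Insig2: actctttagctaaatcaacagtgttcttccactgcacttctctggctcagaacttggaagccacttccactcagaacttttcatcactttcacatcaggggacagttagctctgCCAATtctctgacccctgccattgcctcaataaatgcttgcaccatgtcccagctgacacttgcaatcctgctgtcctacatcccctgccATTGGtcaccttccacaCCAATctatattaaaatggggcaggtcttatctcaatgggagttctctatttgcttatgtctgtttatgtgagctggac
Mvk: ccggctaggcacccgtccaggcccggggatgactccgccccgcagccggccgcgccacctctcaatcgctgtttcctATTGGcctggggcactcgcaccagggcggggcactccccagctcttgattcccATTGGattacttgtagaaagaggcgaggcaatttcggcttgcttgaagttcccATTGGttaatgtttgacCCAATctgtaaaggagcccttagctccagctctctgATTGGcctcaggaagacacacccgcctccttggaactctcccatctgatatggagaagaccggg
Msmo1: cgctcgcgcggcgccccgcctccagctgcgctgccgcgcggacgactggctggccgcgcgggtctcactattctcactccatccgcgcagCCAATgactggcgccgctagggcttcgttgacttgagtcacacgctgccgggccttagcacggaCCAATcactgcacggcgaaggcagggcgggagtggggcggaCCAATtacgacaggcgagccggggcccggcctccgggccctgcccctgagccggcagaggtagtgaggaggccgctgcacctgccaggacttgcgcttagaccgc
The Hmgcs1 window held TCACCCCAC with its first base 137 bases before the start. It also held 4 NF-Y boxes, beginning 237, 176 and 45 bases before the start and 10 bases after it. Mvk held 5 NF-Y boxes, the Insig2 and Msmo1 windows 3 each, and Insig1 1. Both other annotated Insig2 starts had windows with neither motif.

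Windows were found for 25 of the 29 genes, and Fdft1, Fdps, Sqle and Stard4 had no entry. An NF-Y box was present in 22 of the 25 genes, or 88%, against 41.1% of the 27025 genes that have a window of the same length. Acat2, Scap and Aacs were the genes without one. The element core in the spelling searched was present in 1 of the 25, Hmgcs1, or 4%, against 1.44% of all genes with a window. SREBP2 also binds other spellings, so a window without these letters says nothing about its binding. In the Hmgcs1 window the motifs do not overlap.

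Libraries held 16329425 to 25349148 assigned counts, and the lowest count of any of the 29 genes in any library was 44, for Sqle. All 8 hepatocyte markers were present, with a summed level of 65355 to 162720 CPM, the counts of a gene per 1000000 counts of tested genes. On the first 2 principal components of the 14598 other tested genes, which held 34.4% and 16.4% of the variance, a pair of libraries stood apart from their diet. High-fat replicate 1 lay at -15.45 on component 1, where the other high-fat libraries lay at 17.46 to 34.44 and the controls at -50.67 to -41.77. Ketogenic replicate 5 lay at -25.47 on component 2, where the other ketogenic libraries lay at 22.71 to 51.66. On component 1 it lay at 61.73, farther from the controls than any other library, with the other ketogenic libraries at -13.13 to 32.72. The same pair of libraries stood apart for the cholesterol genes, and values without them are given beside some of the genes and counts they moved. In bulk liver, fewer cells of a type and less RNA per cell cannot be told apart. Levels below are CPM after scaling by the trimmed mean of M-values (TMM), listed in the order of replicates 2 to 5 for controls and 1 to 5 for the others.

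The anchors of the sterol sensor moved in opposite directions on both fat-rich diets. Insig1 fell and Insig2 rose against control, while Srebf2 and Scap did not pass the test in either comparison. Insig1 was at 633, 405, 948 and 751 CPM in the controls, 472, 311, 214, 143 and 140.1 CPM on the high-fat diet and 151, 196, 305, 241 and 91.6 CPM on the ketogenic diet. Every ketogenic library was below every control library, whereas high-fat replicate 1 was above control replicate 3. Group levels were 684 ± 227 CPM (SD, n = 4) in controls, 256 ± 139 CPM (SD, n = 5) on the high-fat diet and 197 ± 81.8 CPM (SD, n = 5) on the ketogenic diet. The log2 fold change against control was -1.42 ± 0.40 (SE) on the high-fat diet, adjusted p = 0.0322, and -1.80 ± 0.40 on the ketogenic diet, adjusted p = 0.00943. The high-fat call was lost without any of control replicates 4 and 5 and high-fat replicates 3, 4 and 5, with an adjusted p of up to 0.106, and it was also lost without the low-count filter. Without high-fat replicate 1 the high-fat value was -1.76 (adjusted p = 0.00653).

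Insig2 was at 87.2, 40.9, 59.8 and 71.1 CPM in the controls, 153, 390.4, 247, 332 and 451 CPM on the high-fat diet and 194, 243, 163, 212 and 347 CPM on the ketogenic diet. All 10 libraries of the fat-rich diets were above all 4 controls, and the lowest high-fat value was that of replicate 1. The mean rose from 64.7 ± 19.5 CPM (SD, n = 4) to 315 ± 118 CPM (SD, n = 5) on the high-fat diet and 232 ± 70.8 CPM (SD, n = 5) on the ketogenic diet. The log2 fold change was 2.28 ± 0.32 (adjusted p = 0.000471) on the high-fat diet and 1.84 ± 0.31 (adjusted p = 0.00133) on the ketogenic diet. The counts are per gene, so Insig2a and the other Insig2 transcripts cannot be told apart. Per kilobase of exon, Insig1 had been the most abundant of the 29 genes in control liver, at 221 ± 73.4 CPM per kb, with Insig2 at 18.6 ± 5.61. On the high-fat diet the per-length levels were 82.8 ± 45.0 for Insig1 and 90.6 ± 33.9 for Insig2, and on the ketogenic diet 63.7 ± 26.4 and 66.7 ± 20.4. The ratio of the per-length level of Insig1 to that of Insig2 ran from 8.16 to 17.8 in the 4 controls, from 0.348 to 3.47 in the 5 high-fat libraries and from 0.296 to 2.102 in the 5 ketogenic libraries. The ratio was above 1 in all 4 controls, in high-fat replicate 1 and in ketogenic replicates 3 and 4, and below 1 in the other fat-rich libraries.

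Srebf2, which encodes SREBP2, was at 55.0, 46.3, 57.0 and 49.7 CPM in the controls, 78.7, 57.2, 55.2, 47.7 and 50.1 CPM on the high-fat diet and 85.2, 93.6, 90.1, 93.5 and 35.6 CPM on the ketogenic diet. Ketogenic replicates 1 to 4 were above all controls and replicate 5 was below all of them. With all 5 libraries the ketogenic log2 fold change was 0.61 ± 0.23 (adjusted p = 0.0943), and without replicate 5 it was 0.78 (adjusted p = 0.00123). The high-fat value, 0.15 ± 0.23, had an adjusted p of 0.714. Scap, the escort of SREBP2, was at 83.9, 116, 99.1 and 103 CPM in the controls, 107, 79.7, 91.7, 86.9 and 75.2 CPM on the high-fat diet and 97.8, 100.3, 97.3, 117 and 60.6 CPM on the ketogenic diet. Its diets overlapped, with log2 fold changes of -0.19 ± 0.16 (adjusted p = 0.477) on the high-fat and -0.09 ± 0.16 (adjusted p = 0.762) on the ketogenic diet.

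**Figure D1:**
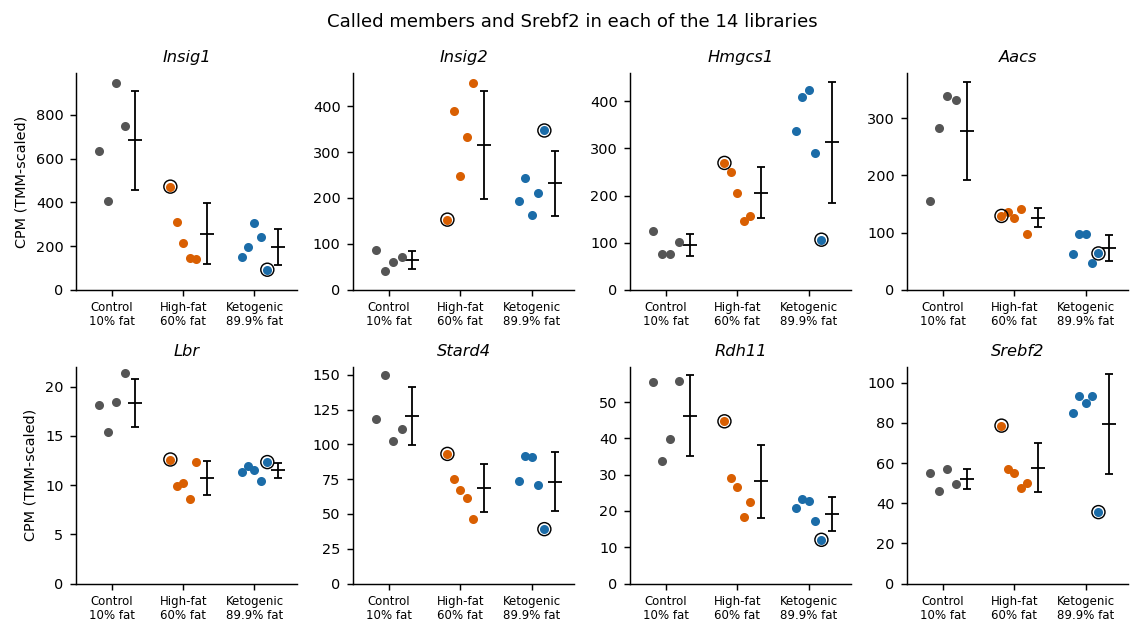
Scaled CPM (vertical axes, from 0) of the 7 genes that passed the test against control on at least 1 diet, and of Srebf2, in each library of the 3 diets; error marks are mean ± SD and black rings mark high-fat replicate 1 and ketogenic replicate 5. Insig2 is above every control in all 10 fat-rich libraries, and Aacs, Lbr and Stard4 are below every control in all 10.

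Among the 8 genes of the mevalonate and isoprenoid steps, Hmgcs1 alone passed the test, and it rose on both fat-rich diets. It encodes the cytosolic HMG-CoA synthase that condenses acetyl-CoA with acetoacetyl-CoA at the entry of the pathway. Hmgcs1 was at 124, 75.9, 76.9 and 102 CPM in the controls, 269, 251, 206, 147 and 158 CPM on the high-fat diet and 336, 409, 424, 289 and 106 CPM on the ketogenic diet. Every high-fat library exceeded every control, and 4 of the 5 ketogenic libraries did; ketogenic replicate 5 lay within the control range. The mean was 94.6 ± 22.9 CPM (SD, n = 4) in controls, 206 ± 54.3 CPM (SD, n = 5) on the high-fat diet and 313 ± 128 CPM (SD, n = 5) on the ketogenic diet. The log2 fold change was 1.12 ± 0.32 (adjusted p = 0.0363) on the high-fat diet and 1.73 ± 0.33 (adjusted p = 0.00350) on the ketogenic diet. The high-fat call was lost without high-fat replicate 1 (1.01, adjusted p = 0.0597), and also without control replicates 3, 4 or 5 or high-fat replicates 2 or 3, with an adjusted p of up to 0.114. It was also lost without the low-count filter, with the replicate block (adjusted p = 0.0521) and with library number as a covariate. The ketogenic call held without each library in turn.

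Idi1, the isomerase that interconverts the isoprenoid building blocks, was at 41.1, 26.6, 21.7 and 25.6 CPM in the controls, 72.4, 37.4, 43.0, 25.7 and 17.3 CPM on the high-fat diet and 58.4, 87.0, 85.4, 54.3 and 4.87 CPM on the ketogenic diet. Ketogenic replicates 1 to 4 were above every control and replicate 5 was below every control, and the high-fat libraries overlapped the controls. The ketogenic log2 fold change was 1.01 ± 0.62 (adjusted p = 0.310), and 1.29 (adjusted p = 0.0376) without replicate 5. The high-fat value was 0.44 ± 0.61 (adjusted p = 0.686), and 0.10 (adjusted p = 0.936) without high-fat replicate 1. Mvk, mevalonate kinase, had the same arrangement, at 9.32 to 14.5 CPM in controls, 21.6 to 38.8 CPM in ketogenic replicates 1 to 4 and 4.25 CPM in replicate 5. Its ketogenic log2 fold change was 1.10 ± 0.50 (adjusted p = 0.169) with replicate 5 and 1.36 (adjusted p = 0.0159) without it.

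The other genes of these steps did not pass the test. Pmvk, phosphomevalonate kinase, had the largest difference of them on the ketogenic diet, -0.93 ± 0.32 (adjusted p = 0.0697), from 34.1 to 81.2 CPM in controls to 15.5 to 43.7 CPM. Mvd, which makes isopentenyl diphosphate, and Fdps, which makes farnesyl diphosphate, had negative values on both diets, of -1.05 ± 0.63 and -0.61 ± 0.47 on the high-fat diet and -0.54 ± 0.63 and -0.79 ± 0.47 on the ketogenic diet. Mvd was at -1.53 (adjusted p = 0.124) on the high-fat diet without replicate 1 and at -0.27 (adjusted p = 0.796) on the ketogenic diet without replicate 5. Acat2, the cytosolic acetoacetyl-CoA thiolase, and Ggps1, which makes geranylgeranyl diphosphate, lay between -0.21 and 0.17 in both comparisons. Ggps1 was the least abundant of the 29 per kilobase in controls, at 1.71 ± 0.221 CPM per kb. Acat2 has a close copy, Acat3, and 26.7% of the Fdps exon bases are shared with another annotated gene on the same strand, so their counts are less certain. Exons of Fdft1, Scap and Hmgcs1 overlap annotated genes on the opposite strand over 18.3%, 13.2% and 12.1% of their bases, and the strand setting of the counting is not known.

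Of the 12 genes of the squalene and sterol steps, Lbr fell on both fat-rich diets and the other 11 did not pass the test on either. On the high-fat diet those 11 ran from -1.07 for Sqle to 0.34 for Nsdhl on the log2 scale, and on the ketogenic diet from -0.61 for Tm7sf2 to 1.23 for Msmo1. Lbr encodes the lamin B receptor of the inner nuclear membrane, which also reduces the sterol ring in the same step as Tm7sf2. Lbr was at 18.2, 15.4, 18.4 and 21.4 CPM in the controls, 12.6, 9.89, 10.2, 8.54 and 12.3 CPM on the high-fat diet and 11.3, 11.9, 11.5, 10.4 and 12.3 CPM on the ketogenic diet. Its ranges did not overlap between control and either fat-rich diet. The log2 fold change was -0.78 ± 0.13 (adjusted p = 0.00135) on the high-fat diet and -0.67 ± 0.13 (adjusted p = 0.00278) on the ketogenic diet, and both calls held in every alternative fit and without each library. Tm7sf2 had values of -0.21 ± 0.43 (adjusted p = 0.801) and -0.61 ± 0.43 (adjusted p = 0.374), and 12.1% of its exon bases are shared with Vps51 on the same strand.

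Sqle, the squalene epoxidase and a known control point of the pathway, was at 105, 52.7, 69.0 and 85.5 CPM in the controls, 91.1, 26.4, 35.0, 20 and 13.7 CPM on the high-fat diet and 73.1, 123, 123, 77.3 and 1.61 CPM on the ketogenic diet. It had the widest relative spread of any of the 29 genes on the high-fat diet, with an SD of 83.6% of the mean, and ketogenic replicate 5 held 1.61 CPM against at least 52.7 CPM in any control. Its log2 fold change was -1.07 ± 0.81 (adjusted p = 0.429) on the high-fat diet and 0.03 ± 0.81 (adjusted p = 0.985) on the ketogenic diet. Without high-fat replicate 1 the former was -1.71 (adjusted p = 0.189), and without ketogenic replicate 5 the latter was 0.33 (adjusted p = 0.729). Fdft1, the squalene synthase, was at 123, 91.4, 85.7 and 106 CPM in the controls, 149.7, 79.8, 90.4, 80.1 and 68.0 CPM on the high-fat diet and 106, 151, 193, 124 and 42.0 CPM on the ketogenic diet. Neither Fdft1 difference passed the test, at -0.12 ± 0.33 (adjusted p = 0.856) and 0.28 ± 0.33 (adjusted p = 0.621). Without the library that stood apart in each diet, Fdft1 was at -0.35 (adjusted p = 0.491) on the high-fat and 0.48 (adjusted p = 0.192) on the ketogenic diet. Ketogenic replicate 5 was below every control for both genes.

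Msmo1, which removes methyl groups from the sterol ring, was at 61.7 to 99.4 CPM in controls and 151.8 to 361 CPM in ketogenic replicates 1 to 4, with replicate 5 at 22.0 CPM. The ketogenic log2 fold change was 1.23 ± 0.61 (adjusted p = 0.209) and 1.50 (adjusted p = 0.0345) without replicate 5. The high-fat value of Msmo1 was 0.30 ± 0.59 (adjusted p = 0.791), and -0.19 (adjusted p = 0.857) without high-fat replicate 1. Cyp51, the lanosterol demethylase, was at 78.8 to 143 CPM in controls, at 57.4 to 171 CPM on the high-fat diet and at 18.6 to 249.6 CPM on the ketogenic diet, and its wide spread gave 0.65 ± 0.55 (adjusted p = 0.473) on the latter. Nsdhl and Hsd17b7, which complete demethylation, were at 0.55 ± 0.54 (adjusted p = 0.537) and 0.16 ± 0.36 (adjusted p = 0.805) on the ketogenic diet. Sc5d, the sterol desaturase, was at -0.53 ± 0.18 (adjusted p = 0.0675) there. Lss, the lanosterol synthase, Ebp, the sterol isomerase, and Dhcr7, the last reductase before cholesterol in its branch, were at -0.44 ± 0.38, -0.21 ± 0.23 and -0.12 ± 0.34 on the ketogenic diet, with adjusted p values of 0.473, 0.590 and 0.854. Of these 8 sterol genes, Msmo1 alone passed without ketogenic replicate 5, with Cyp51 at 0.92 (adjusted p = 0.0976), Nsdhl at 0.81 (adjusted p = 0.169), Hsd17b7 at 0.37 (adjusted p = 0.420) and Dhcr7, now positive, at 0.08 (adjusted p = 0.872).

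**Figure D2:**
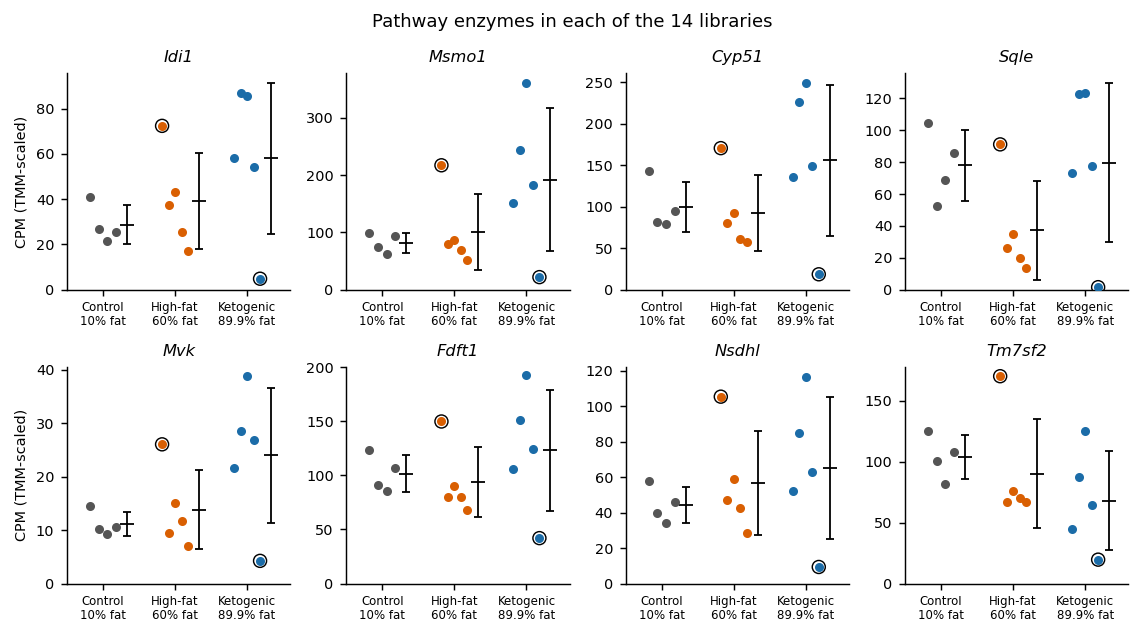
Scaled CPM (vertical axes, from 0) of 8 pathway enzymes in each library of the 3 diets; error marks are mean ± SD and black rings mark high-fat replicate 1 and ketogenic replicate 5. In each panel the ringed ketogenic library is the lowest of its diet and the ringed high-fat library the highest of its diet, for example 1.61 CPM and 91.1 CPM for Sqle.

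Of the 5 other targets and sterol handling genes, Aacs and Stard4 fell on both fat-rich diets, Rdh11 fell on the ketogenic diet, and Tmem97 and Mylip did not pass the test. Aacs encodes the cytosolic enzyme that activates the ketone body acetoacetate for lipid synthesis. Aacs was at 155, 284, 339.5 and 332 CPM in the controls, 129, 136, 125, 142 and 97.8 CPM on the high-fat diet and 61.7, 98.4, 97.0, 47.2 and 63.6 CPM on the ketogenic diet. Its ranges did not overlap between control and either fat-rich diet, and the lowest control was replicate 2. The log2 fold change was -1.14 ± 0.24 (adjusted p = 0.00592) on the high-fat diet and -1.92 ± 0.24 (adjusted p = 0.000127) on the ketogenic diet, from means of 278 ± 85.4 CPM (SD, n = 4), 126 ± 16.9 CPM (SD, n = 5) and 73.6 ± 22.9 CPM (SD, n = 5). Both calls held in every alternative fit and without each library.

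Stard4, a soluble carrier that moves sterols between membranes, was at 118, 150.1, 103 and 111 CPM in the controls, 93.2, 75.5, 67.1, 61.8 and 46.6 CPM on the high-fat diet and 73.5, 91.4, 91.1, 70.6 and 39.1 CPM on the ketogenic diet. All fat-rich libraries were below all controls. The log2 fold change was -0.81 ± 0.23 (adjusted p = 0.0300) on the high-fat diet and -0.72 ± 0.23 (adjusted p = 0.0487) on the ketogenic diet. The high-fat call was lost without any of control replicates 2, 3 and 5 and high-fat replicates 3, 4 and 5 (adjusted p of up to 0.0991). The ketogenic call was lost without any 1 of the 4 controls, of high-fat replicates 2, 3 and 4 or of ketogenic replicates 1 and 4 (adjusted p of up to 0.147), and with library totals, without the low-count filter, in the fit of those diets alone and with library number as a covariate.

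Rdh11, a retinol dehydrogenase of the endoplasmic reticulum, was at 55.4, 33.8, 39.8 and 55.8 CPM in the controls, 44.7, 29.03, 26.6, 18.3 and 22.4 CPM on the high-fat diet and 20.7, 23.2, 22.8, 17.2 and 12.0 CPM on the ketogenic diet. The ketogenic libraries were all below the controls, at -1.27 ± 0.25 (adjusted p = 0.00366). The high-fat difference of -0.72 ± 0.25 did not pass (adjusted p = 0.0713), and without high-fat replicate 1 it was -0.94 (adjusted p = 0.0103). Tmem97, a sterol-responsive membrane protein, was at -0.06 ± 0.23 and 0.13 ± 0.23 on the high-fat and ketogenic diets (adjusted p = 0.903 and 0.757). Mylip, a ubiquitin ligase for lipoprotein receptors that is known to be induced by the oxysterol receptor LXR rather than by SREBP2, was at 0.19 ± 0.26 and -0.05 ± 0.25 (adjusted p = 0.669 and 0.920).

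Across all 29 genes, 2 were higher and 4 were lower on the high-fat diet than on control at an adjusted p below 0.05, and 23 did not pass. Of all 14627 genes tested in that comparison, 6.95% were called higher and 5.01% lower. The median log2 fold change of the 29 was -0.11, with 20 negative and 9 positive, beside 0.00747 over all genes. On the ketogenic diet 2 of the 29 were higher and 5 lower than control, where 7.47% of all genes were called higher and 4.6% lower. The median of the 29 was -0.087 with 16 negative and 13 positive, beside 0.031 over all genes. The share of the 29 called higher, 6.9% in both comparisons, was near that of all genes, and the shares called lower, 13.8% and 17.2%, came from 4 and 5 genes. Scaled by library totals, which moved the median of all genes to 0.134 and 0.208, the medians of the 29 turned positive, at 0.00078 on the high-fat and 0.068 on the ketogenic diet. Without high-fat replicate 1 the high-fat median of the 29 was -0.27, with 22 negative and 7 positive, and without ketogenic replicate 5 the ketogenic median was -0.0098, with 15 negative and 14 positive. Both comparisons use the same 4 controls, so their calls are not independent.

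Without overlap between the libraries of the 2 diets, 2 of the 29 were higher and 3 lower on the high-fat diet than on control, beside 9.45% and 6.79% of all genes. Between ketogenic and control, 1 was higher and 5 were lower without overlap, beside 7.38% and 5.17% of all genes. Leaving out a single library moved the counts of genes called at an adjusted p below 0.05, which follow. Overlap was not counted again with a library left out. On the high-fat diet 1 gene was higher without any of control replicates 3, 4 and 5 and high-fat replicates 1, 2 and 3. In those fits 3.97% to 8.14% of all genes were called higher. On that diet 2 genes were lower without any of control replicate 5 and high-fat replicates 3, 4 and 5, where 2.94% to 3.13% of all genes were called lower. Against control, 6 genes were higher on the ketogenic diet without ketogenic replicate 5, when 7.24% of 14400 genes were called higher. Insig2, Aacs and Lbr passed against control on both diets in every alternative and without each library in turn.

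**Figure D3:**
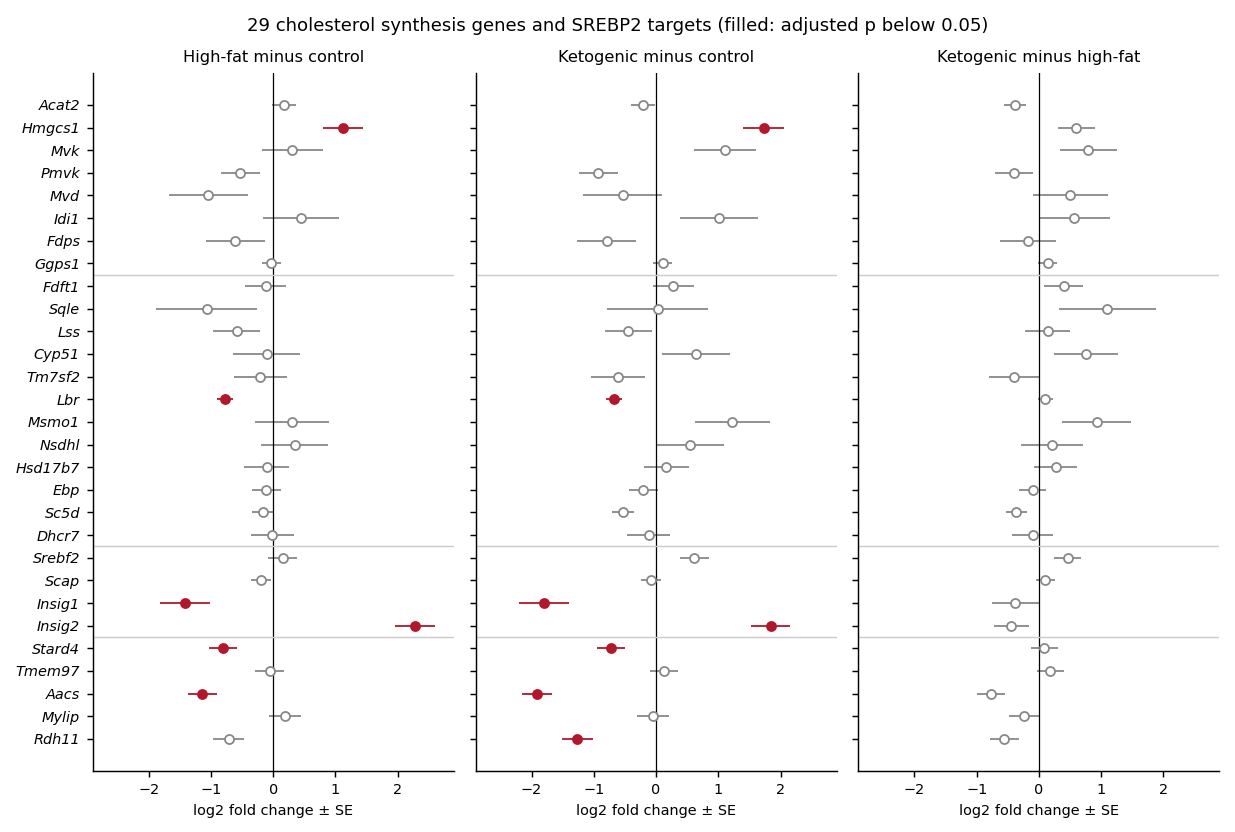
Log2 fold change ± SE (horizontal axes) of each of the 29 genes in the 3 comparisons between diets, grouped by role and with filled red points for an adjusted p below 0.05. There are 6 filled points for high-fat minus control, 7 for ketogenic minus control and none for ketogenic minus high-fat.

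Between the fat-rich diets, 0 of the 29 genes passed with edgeR and 0 with DESeq2, with 4 and 5 at an unadjusted p below 0.05. Few genes of any kind passed: 0.00684% of the 14627 were called higher and 0.0547% lower on the ketogenic than on the high-fat diet. The median log2 difference of the 29 was 0.10, beside 0.022 over all genes. None of the 29 separated the diets without overlap, as 0.875% of all genes did higher and 0.889% lower. The smallest adjusted p was that of Aacs, at -0.78 ± 0.22 (adjusted p = 0.246), with Rdh11 at -0.55 ± 0.24 (adjusted p = 0.509). Insig1 and Insig2 differed by -0.38 ± 0.37 and -0.44 ± 0.28 (adjusted p = 0.870 and 0.708). Without high-fat replicate 1, Insig1 differed by -0.04 (adjusted p = 0.987) and Insig2 by -0.62 (adjusted p = 0.449). Without ketogenic replicate 5, Hmgcs1 (0.82, adjusted p = 0.0367) and Srebf2 (0.65, adjusted p = 0.0152) were higher on the ketogenic diet, when 0.938% of all genes were called higher.

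Spread between libraries of the same diet was wide for these genes. Their median SD as a share of the mean was 22.7% in controls, 36.8% on the high-fat diet and 39.6% on the ketogenic diet, beside 16.3%, 17.1% and 20.9% over all tested genes. On the high-fat diet replicate 1 was the highest library for 25 of the 29 genes, with a median of 0.74 log2 units above its diet's mean and a summed level of 3940.1 CPM against 2217 to 2929 CPM in the others. On the ketogenic diet replicate 5 was the lowest for 24 of the 29, with a median difference of -1.08 log2 units from the mean and a sum of 1429.6 CPM against 2549 to 4040 CPM.

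Ketogenic replicate 5 was below every control for 25 of the 29 genes. Counts of this kind, and the library ranks above, were not made over all tested genes. They therefore do not show whether these genes parted by library more than others did. For Hmgcs1, Hsd17b7, Idi1, Insig2, Msmo1, Mvk and Srebf2, which make 7, the other 4 ketogenic libraries were all above every control. For 5 of those 7, all but Hmgcs1 and Insig2, replicate 5 was on the far side of the controls. Insig2 and Ggps1 went the other way in both libraries that stood apart: each was lowest of its diet in high-fat replicate 1 and highest in ketogenic replicate 5. Without ketogenic replicate 5, 6 of the 29 were higher and 5 lower on the ketogenic diet than on control, beside 7.24% and 5.02% of all genes in that fit; Mvk, Idi1, Msmo1 and Srebf2 joined the 7 that passed with all libraries.

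**Figure D4:**
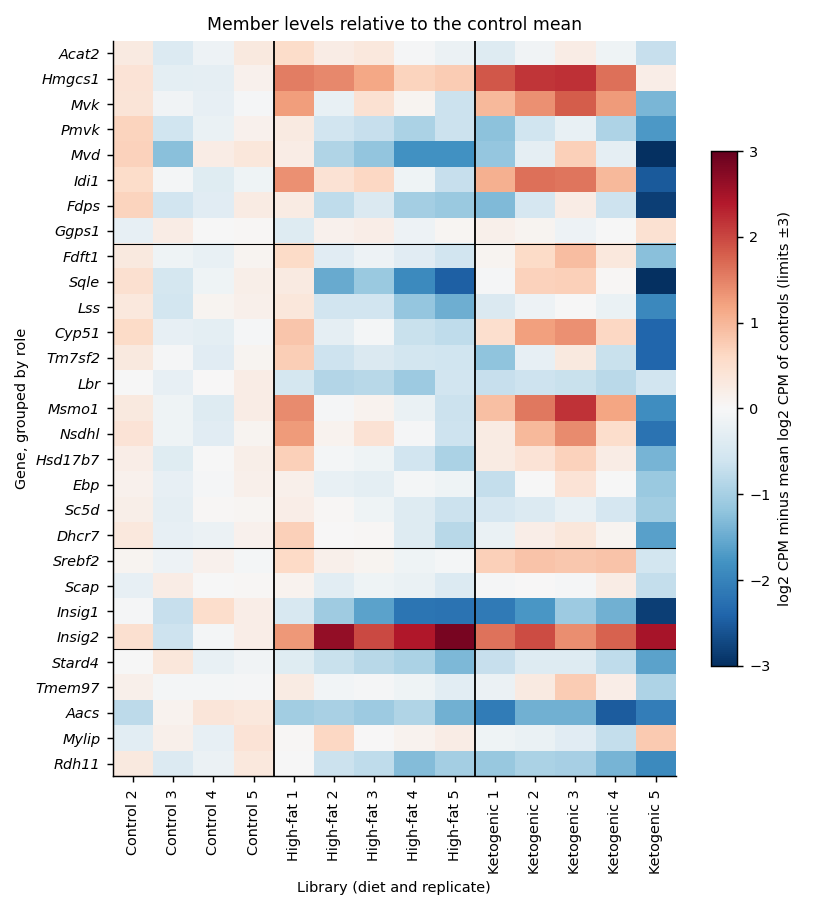
Log2 CPM of each of the 29 genes (rows, grouped by role) minus the mean of the controls, in each of the 14 libraries (columns), with red above and blue below the control mean and the colour limited at the values marked on the bar. Ketogenic replicate 5 is blue for most genes while Insig2 is red in it, and high-fat replicate 1 is the reddest high-fat column for most of the sterol enzymes.

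**Figure D5:**
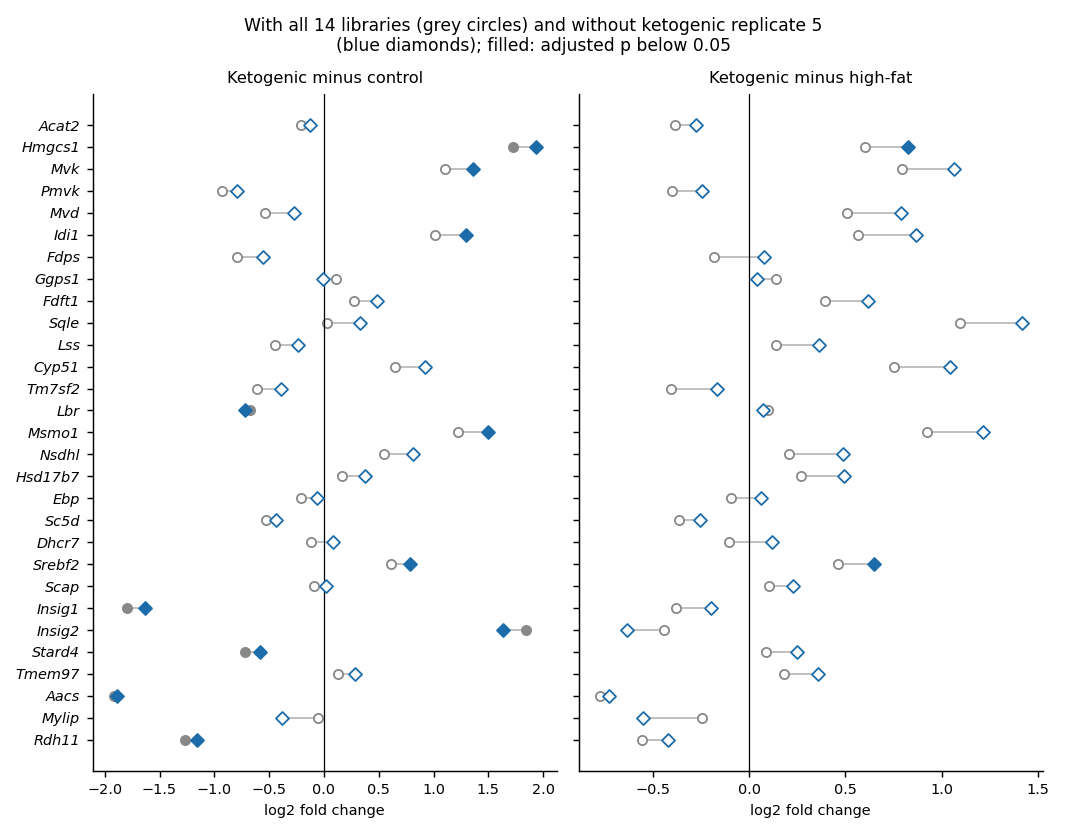
Log2 fold change (horizontal axes) of the 29 genes with all 14 libraries (grey circles) and without ketogenic replicate 5 (blue diamonds), filled where the adjusted p is below 0.05. Without that library 6 genes are called higher against control and 2 against the high-fat diet.

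Other genes differed in the same libraries. The summed level of the fatty acid synthesis list was 25928 CPM in ketogenic replicate 5 and 3177 to 3419 CPM in the other ketogenic libraries. The level in replicate 5 lay within the 21004 to 35451 CPM of the controls and the 14106 to 27354 CPM of the high-fat libraries. The 6 genes listed for recruited, lipid-laden macrophages summed to 398 CPM in ketogenic replicate 5 against 36.9 to 114.7 CPM in the other ketogenic libraries. There the 8 Kupffer cell and macrophage markers summed to 745 CPM against 258 to 337 CPM, and the 6 stellate cell and fibroblast markers to 680 CPM against 299.8 to 431 CPM. The 6 T and NK cell markers summed to 11.9 CPM against 1.55 to 2.84 CPM, and the 8 hepatocyte markers to 65355 CPM against 81399 to 114746 CPM. High-fat replicate 1 had the lowest stellate cell and fibroblast sum of its diet, 359 CPM against 402 to 466 CPM, and the highest sum of the 8 pancreatic acinar markers, 645 CPM against 90.8 to 353 CPM. Control replicate 2, the highest control for 18 of the 29 genes, held 1401 CPM of those acinar markers against 24.7 to 155 CPM in the other controls. Between diets, hepatocyte markers summed to 128497 to 162720 CPM in controls and 85352 to 119557 CPM on the high-fat diet, and 1 of 8 fell on the high-fat and 3 of 8 on the ketogenic diet. Of the 6 stellate cell and fibroblast markers 2 rose on the high-fat and 3 on the ketogenic diet, and of the 6 recruited macrophage genes 1 and 2 rose. The part of these differences in the cholesterol gene levels was not tested.

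Of 14 further genes for SREBP processing and sterol-regulated degradation, Sar1b, a small GTPase of vesicle budding, rose on the high-fat diet (0.44 ± 0.13, adjusted p = 0.0391) and Srebf1, which encodes SREBP1, fell (-1.29 ± 0.31, adjusted p = 0.0146). On the ketogenic diet Srebf1 fell (log2 fold change -2.09 ± 0.31, adjusted p = 0.00052) and was the 1 gene called. The list's median was -0.17 and -0.077 in these comparisons. Of 14 genes of the isoprenoid and prenylation branch, Dhdds, part of the dolichol synthesis enzyme, fell on the high-fat diet (-0.45 ± 0.14, adjusted p = 0.0431). On the ketogenic diet 0 of them passed with edgeR (3 at an unadjusted p below 0.05) and 1 with DESeq2.

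Of 18 tested genes of sterol storage, trafficking and oxysterol signalling, Nceh1, which hydrolyses cholesteryl esters, rose on both the high-fat diet (0.98 ± 0.17, adjusted p = 0.00182) and the ketogenic diet (1.37 ± 0.17, adjusted p = 0.000127). Lipa, the lysosomal acid lipase, rose on the high-fat diet (0.67 ± 0.15, adjusted p = 0.0113). Of the 14 fatty acid synthesis targets shared with SREBP1, 2 rose and 2 fell on the high-fat diet, with Fads2, a desaturase, at 1.07 ± 0.17 (adjusted p = 0.00111), Elovl5, an elongase, at 1.41 ± 0.39 (adjusted p = 0.0290) and Acly, which makes cytosolic acetyl-CoA, at -1.37 ± 0.32 (adjusted p = 0.0122). On the ketogenic diet 11 fell, with a list median of -1.66, including Acly at -2.75 ± 0.33 (adjusted p = 0.000111), Me1, the malic enzyme, at -1.51 ± 0.21 (adjusted p = 0.000267) and Gpam, a glycerol phosphate acyltransferase, at -1.31 ± 0.22 (adjusted p = 0.00127). Between the fat-rich diets, Fads1 was the 1 gene of these 4 lists to pass with edgeR, lower on the ketogenic diet (-0.90 ± 0.12, adjusted p = 0.0149), while DESeq2 called 6 of the 14 fatty acid genes lower. The other lists had 0 genes called with edgeR and 0 with DESeq2, with 4, 2 and 2 genes at an unadjusted p below 0.05 in edgeR. Without ketogenic replicate 5, 10 of the fatty acid genes were lower on the ketogenic than on the high-fat diet, when 1.25% of all genes were called lower.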

How the data were processed

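Liver poly(A) RNA-seq of 14 libraries on 3 diets was analysed (4 control, 5 high-fat, 5 ketogenic), each placed by the diet and replicate number in its title. The values deposited by the authors are raw read counts per Ensembl gene. Per the submitters' processing notes, cutadapt 1.16, STAR 2.7.9a, featureCounts 1.6, DESeq2 1.36.0 and genome build GRCm39 were named, with no order. The annotation release, strand setting and treatment of multiply mapped reads were not given in the sources used; therefore overlapping and antisense genes may share reads. Symbols, exon lengths and exon overlaps came from GENCODE vM21 (GRCm38), which named 98.17% of tested genes, and no coordinates are printed from it.

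Counts were filtered (filterByExpr, minimum count 10, minimum total 15), scaled by TMM and fitted for all 14 libraries in 1 edgeR 4.0.16 quasi-likelihood model (R 4.3.3), with two-sided tests adjusted by Benjamini-Hochberg over 14627 genes at 0.05. The fit was tested on simulated data with known changes, for the high-fat and ketogenic comparisons with control in turn. It called 12.5% and 18.2% of 1.5-fold changes, 57.1% and 61% of 2-fold changes and 86.4% and 82.7% of 4-fold changes. A gene that did not pass may therefore still differ. SE is the absolute log2 fold change divided by the square root of F. CPM are counts per 1000000 of the TMM-scaled library size of tested genes, for marker and pathway sums as well. Alternatives were DESeq2 1.42.0, other scalings and filters, a fit of 2 diets, a replicate block, library number as a covariate and each library left out.

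The 29 genes, the further lists and the markers were chosen with earlier results of these data known. Libraries' values are printed for genes called in any comparison and for Srebf2, Scap, Insig1, Insig2, Hmgcs1, Sqle, Idi1 and Fdft1; of each further list, up to 3 called genes with the smallest adjusted p are named per comparison. Some genes of this pathway are not reported here. Depth was 16329425 to 25349148 counts per library, and no pair of libraries was identical.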

Additional observations from a re-analysis of the deposited data

Results flagged for a closer look

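By Dixon's ratio, single libraries lay far from the rest of their diet in 9 of the 87 combinations of gene and diet examined. Chance alone gives about 1 in 20 for a single combination with normally distributed values. The combinations share libraries and are not independent, so that rate cannot be compared with the 9. Of the 9, 6 were high values in high-fat replicate 1. Tm7sf2 stood at 170 CPM there with the next library at 75.6 CPM, Msmo1 at 217 CPM with the next at 87.2 CPM, Fdft1 at 149.7 CPM with the next at 90.4 CPM, and Sqle at 91.1 CPM with the next at 35.0 CPM. Pmvk stood at 61.5 CPM in that library with the next at 34.4 CPM, and Mvd at 24.2 CPM with the next at 11.1 CPM. Ketogenic replicate 5 held 35.6 CPM of Srebf2, where the next lowest library held 85.2 CPM, and 18.5 CPM of Mylip, where the next highest held 9.80 CPM. Tmem97 was at 90.2 CPM in control replicate 2, above 79.3 CPM in the next control.

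The control library that the submitters excluded as contaminated held 22028794 counts. Its pancreatic acinar markers summed to 13167 counts per 1000000 of its total, where the other controls reached at most 1344. Stard4 stood at 147.8 counts per 1000000 in it, just above the highest other control at 144.6. Of the 29 genes, 24 lay within the range of the other controls, 4 below it and 1 above it.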

How the results depend on the processing

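Over 7 other settings and 3 comparisons, 595 of 609 values of the 29 genes kept their side of the threshold, 8 lost a call and 6 gained one; with each of the 14 libraries left out, 1181 of 1218 did, 26 lost and 11 gained. No called gene changed direction, while uncalled genes changed sign 16 and 38 times. Without the low-count filter, with the replicate block and with library number as a covariate, 1 gene was higher on the high-fat diet than on control, Hmgcs1 being lost. The shares of all genes called higher in these fits were 2.75%, 5.66% and 5.88%. Leaving out 1 library gave 1 to 2 genes higher and 2 to 5 lower on the high-fat diet, beside 591 to 1472 and 343 to 1145 of all genes. On the ketogenic diet 2 to 6 were higher and 4 to 7 lower, beside 658 to 1295 and 398 to 906 of all genes. Between the fat-rich diets 0 to 2 were higher, beside 0 to 135 of all genes. Scaled by library totals alone, the median log2 fold change of all genes moved from 0.00747 to 0.134 on the high-fat and from 0.031 to 0.208 on the ketogenic diet, which then called 8.9% of genes higher and 2.87% lower, and 12.5% higher and 2.52% lower; of the 29 genes 3 were higher and 4 lower on the ketogenic diet, with Srebf2 gained and Stard4 lost. DESeq2 added Rdh11 on the high-fat diet, where it called 8.92% of all genes higher and 7.77% lower. It added Pmvk and Sc5d on the ketogenic diet, where it called 9.34% of all genes higher and 7.22% lower. Between the fat-rich diets DESeq2 called 0.424% of all genes higher and 0.759% lower. Without the low-count filter 2.75% of 28605 genes were higher and 1.87% lower on the high-fat diet, 3.02% and 1.88% on the ketogenic diet; the high-fat fit of 2 diets gave 10.1% and 7.93%. The replicate block kept 5 of the 6 high-fat calls, added Rdh11 and kept all 7 ketogenic calls. With that block 5.66% of all genes were called higher and 3.77% lower on the high-fat diet, and 5.44% and 3.43% on the ketogenic diet. The labels do not say that replicate numbers pair libraries. Of 13 same-numbered pairs 3 had a correlation of deviations above 0.1, over a range of -0.404 to 0.418. Such correlations cannot settle whether the libraries were paired. The causes were not tested. Another length (the longest transcript) moved the per-length control level of 12 genes by more than 1 SD between controls. A motif search on the gene's own strand found CCAAT in 11 of 25 genes, or 44%, against 23.7% of all genes with a window. The lowest count of these genes in any library was 44, and the effect of depth was not tested.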
